A study of Mus musculus with 24 samples.

Results

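The *Cyp2a* and *Cyp2b* genes of the liver were examined together with *Por*, whose product passes electrons to them, and with *Nr1i3* and *Nr1i2*, which encode the nuclear receptors CAR and PXR. These are 9 of the 23972 genes in the count table, taken by name: *Cyp2a4*, *Cyp2a5*, *Cyp2a12*, *Cyp2b9*, *Cyp2b10*, *Cyp2b13*, *Nr1i2*, *Nr1i3*, and *Por*. The study asked how partial lipodystrophy, and FGF21 given by gene transfer, change the liver. It compared female *Lmna* ADKO mice, which carry 2 floxed *Lmna* alleles and *Adipoq*-Cre, with controls that carry the floxed alleles without Cre, so both genotypes share the floxed allele (exons 10 to 11). *Adipoq*-Cre acts in adipocytes, and the gene was therefore not deleted from hepatocytes by design. Mice were 12 to 14 weeks old at the start and lived at 22°C. They ate a diet with 60% of energy from fat for 4 weeks before they received vehicle or an AAV8 vector for mouse FGF21. The methods name no change of diet after that. Livers were collected 8 weeks later. RNA-Seq libraries came from 7 control livers after vehicle, 3 control livers after FGF21, 6 *Lmna* ADKO livers after vehicle, and 8 *Lmna* ADKO livers after FGF21, 24 in all.

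Cytochromes P450 of the CYP2A and CYP2B families sit in the endoplasmic reticulum of hepatocytes and oxidize drugs, nicotine, coumarin, steroids, and other lipids. CAR and PXR sense foreign compounds, bile acids, and steroid metabolites. They pair with RXR and bind DNA response elements near P450 genes. In rodents, *Cyp2b10* is the classic CAR target, whereas *Cyp2a4*, *Cyp2b9*, and *Cyp2b13* are known for higher levels in female than in male liver, a pattern set by growth hormone secretion. *Por* encodes the reductase that all microsomal P450s need.

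The 6 P450 genes lie in one stretch of chromosome 7. On GRCm38 (GENCODE M21), *Cyp2b10* spans 25897620 to 25926624, *Cyp2b13* 26061497 to 26096197, *Cyp2b9* 26173411 to 26210661, *Cyp2a4* 26307169 to 26315088, *Cyp2a5* 26835305 to 26843548, and *Cyp2a12* 27029081 to 27037375, all on the plus strand. *Nr1i3* is on chromosome 1 (171213970 to 171220701), *Por* on chromosome 5 (135670033 to 135735326), and *Nr1i2* on the minus strand of chromosome 16 (38248323 to 38294824). Some of the P450 genes are near copies. The coding sequences of *Cyp2a4* and *Cyp2a5* differed at 23 of 1482 bases (98.4% identity), and those of *Cyp2b9* and *Cyp2b13* at 107 of 1473 (92.7%). *Cyp2b10* was 86.2% identical to *Cyp2b9* and 87.1% to *Cyp2b13*. The likeness extends upstream of the genes. The 250 bases before the RefSeq start (GRCm38.p6, plus strand, 5′ to 3′) are shown because these near copies are compared with each other below. Capitals mark bases that differ from the paired copy, or lie in a gap of it, within the aligned stretch, with *Cyp2a4* set against *Cyp2a5*, *Cyp2b9* against *Cyp2b13*, and *Cyp2b10* against *Cyp2b9*.
Cyp2a4, chr7:26306942-26307191: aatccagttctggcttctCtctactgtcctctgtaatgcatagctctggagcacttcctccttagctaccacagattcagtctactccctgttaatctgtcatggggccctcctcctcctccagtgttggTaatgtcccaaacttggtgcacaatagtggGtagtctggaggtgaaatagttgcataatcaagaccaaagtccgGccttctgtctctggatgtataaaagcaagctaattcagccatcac
Cyp2a5, chr7:26835089-26835338: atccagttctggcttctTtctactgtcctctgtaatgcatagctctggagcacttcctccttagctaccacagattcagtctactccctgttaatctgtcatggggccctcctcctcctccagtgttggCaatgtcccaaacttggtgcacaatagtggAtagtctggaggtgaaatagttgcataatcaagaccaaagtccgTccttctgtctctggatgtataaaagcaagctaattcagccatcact
Cyp2b9, chr7:26173159-26173408: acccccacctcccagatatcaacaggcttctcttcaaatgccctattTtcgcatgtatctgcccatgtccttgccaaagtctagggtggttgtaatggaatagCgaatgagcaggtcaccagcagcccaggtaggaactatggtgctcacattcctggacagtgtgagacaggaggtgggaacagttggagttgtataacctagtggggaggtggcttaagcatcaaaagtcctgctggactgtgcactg
Cyp2b13, chr7:26061245-26061494: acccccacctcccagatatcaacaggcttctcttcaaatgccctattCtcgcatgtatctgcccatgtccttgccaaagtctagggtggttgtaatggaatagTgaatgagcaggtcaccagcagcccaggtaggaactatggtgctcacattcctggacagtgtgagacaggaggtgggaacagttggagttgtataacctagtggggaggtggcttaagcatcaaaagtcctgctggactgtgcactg
Cyp2b10, chr7:25897408-25897657: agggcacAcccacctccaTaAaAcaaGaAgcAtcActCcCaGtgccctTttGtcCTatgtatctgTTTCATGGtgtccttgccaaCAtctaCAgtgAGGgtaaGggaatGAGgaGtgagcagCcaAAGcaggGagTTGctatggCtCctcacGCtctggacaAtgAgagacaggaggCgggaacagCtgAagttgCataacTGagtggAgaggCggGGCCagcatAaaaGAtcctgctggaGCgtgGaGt
The upstream sequences of *Cyp2a4* and *Cyp2a5* differed at 4 of 249 aligned bases, and those of *Cyp2b9* and *Cyp2b13* at 2 of 250. *Cyp2b10* was 69.7% identical to *Cyp2b9* over 254 aligned columns, with 63 substituted bases and 14 columns in gaps.

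All 9 genes had a RefSeq promoter window of 300 bases (250 before and 50 after the start), and each window was searched on both strands. The letters TATAAA were found 28 bases before the start in *Cyp2a4*, 29 before it in *Cyp2a5*, and 39 before it in *Cyp2a12*, and were in 13.6% of all 32851 promoters. AGGTCA, a half-site of nuclear receptors, was 138 bases before the start in both *Cyp2b9* and *Cyp2b13*, and on the minus strand 30 and 29 bases after the start in *Cyp2a4* and *Cyp2a5*. It was in 16.3% of all promoters. DR4, a direct repeat of AGGTCA bound by CAR and PXR with RXR, was in 0.0152% of all promoters, TTCNNNGAA in 8.30%, and CAAAGTCCA in 0.475%, and none of these letters were found in the windows of the 9 genes. In the windows of *Cyp2b10*, *Nr1i2*, *Nr1i3*, and *Por*, no searched motif was found. Sites outside these 300 bases, or with letters other than the exact ones given, were not searched for.

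Between 19863304 and 21510054 reads were counted on genes per library. Levels are CPM (counts scaled per library) on TMM-scaled library sizes, and 3 counts, taken as the floor, are 0.124 to 0.176 CPM. In these bulk livers, fewer cells of a type and less RNA per cell cannot be told apart. The 7 hepatocyte markers summed to 87027 to 166454 CPM, and the 4 adipocyte markers to at most 1.24 CPM. *Lmna* was detected in every library at 15.7 to 33.7 CPM, which does not check a deletion made in adipocytes. *Fgf21* counts did not separate the FGF21 groups from vehicle (1.90 to 10.8 CPM over vehicle libraries, 2.19 to 9.99 CPM over the others). Whether transcripts of the vector were counted on this gene was not tested, so these counts do not check the gene transfer. The study reports that plasma FGF21 rose after transduction in this experiment, disproportionately in *Lmna* ADKO mice. For each library, log2 CPM less the gene's median over livers of the same genotype was regressed on log2 exonic length. This used 9694 protein-coding genes. The 3 libraries with the lowest slopes are set apart below. Their slopes were -0.331 in FGF21-treated *Lmna* ADKO liver 7, -0.289 in FGF21-treated control 3, and -0.154 in vehicle-treated control 3. The other 21 had slopes of -0.109 to 0.128, so the third lay near the next.

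Scaled to transcript length, the order of the genes in vehicle-treated controls was *Cyp2a5* (624 CPM per kb), *Cyp2a12* (390.0), *Nr1i3* (315), *Cyp2b9* (307), *Cyp2a4* (302), *Cyp2b13* (271), *Por* (203), *Nr1i2* (32.3), and *Cyp2b10* (1.82). The ranges of neighbours in this order overlapped from *Cyp2a5* down to *Por*. *Nr1i2* lay below *Por* in 7 of 7 libraries and *Cyp2b10* below *Nr1i2* in 7 of 7, with no overlap. With all annotated exons in place of 1 coding transcript, *Nr1i3* stood at 101 CPM per kb and *Cyp2a12* at 189.6, so their places rest on the length used. CAR thus had the more abundant mRNA of the 2 receptors, and *Cyp2b10*, the classic CAR target, had the lowest level of the 9 genes in each group. In vehicle-treated *Lmna* ADKO livers, *Cyp2a12* (336 CPM per kb) stood first and *Cyp2a5* (297) second, with overlapping ranges, and *Cyp2a4* had moved to the seventh place (115).

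In vehicle-treated mice, 4 of the 9 genes were called, all lower in *Lmna* ADKO than in control livers: *Cyp2a4*, *Cyp2a5*, *Cyp2b9*, and *Nr1i3*. A gene was called at an adjusted p under 0.05 over all genes (edgeR, Benjamini-Hochberg) with a fold change over 1.5. Of all 23972 genes, 8.48% were called in this comparison, 5.12% higher and 3.36% lower. At an unadjusted p under 0.05 there were 5 of the 9, against 27.0% of all genes. The median log2 fold change was -0.50 over the 9 genes and 0.00265 over all genes.

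Of the receptors, *Nr1i3* (CAR) fell, whereas *Nr1i2* (PXR) was not called. The lowest, median, and highest levels of *Nr1i3* were 258, 459, and 624.9 CPM in vehicle-treated controls and 163, 211, and 343 CPM in vehicle-treated *Lmna* ADKO livers. Of the 6 *Lmna* ADKO livers, 5 lay below every control, and 5 of 7 controls lay above every *Lmna* ADKO liver. The means were 446 ± 140.0 CPM (SD, n = 7) and 222 ± 67.7 CPM (SD, n = 6) (log2 fold change -1.004, standard error 0.212, adjusted p = 0.00157, edgeR; exact permutation test, two-sided, p = 0.00408). *Nr1i2* ranged from 65.7 to 98.4 CPM in controls and from 78.9 to 110.5 CPM in *Lmna* ADKO livers, with a log2 fold change of 0.16 (95% interval -0.07 to 0.38, adjusted p = 0.415, edgeR). *Nr1i3* made up 83.6% ± 3.55 (SD, n = 7) of the counts on both receptors in controls and 69.9% ± 5.75 (SD, n = 6) in *Lmna* ADKO livers, a share of counts and not of molecules, since the transcripts differ in length. *Nr1i3* overlaps *Tomm40l* on the other strand over 4691 bases of the genome, but *Tomm40l* averaged 18.7 CPM against 359 CPM for *Nr1i3*.

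*Cyp2a4*, which encodes a testosterone 15-alpha-hydroxylase, had the largest fold change of the 9 genes. It was at 218, 578, and 776 CPM (lowest, median, highest) in vehicle-treated controls and at 137, 193, and 314 CPM in vehicle-treated *Lmna* ADKO livers. Only the lowest control and the highest *Lmna* ADKO liver reached into the other group's range. Mean levels were 524 ± 216 CPM (SD, n = 7) and 200.4 ± 63.3 CPM (SD, n = 6) (log2 fold change -1.39, standard error 0.276, adjusted p = 0.00116, edgeR; exact permutation test, p = 0.00291). *Cyp2a5*, the coumarin 7-hydroxylase, was at 597, 1435, and 1923 CPM in controls and 329, 548, and 975 CPM in *Lmna* ADKO livers. Controls fell into 2 sets for this gene, 3 livers at 597 to 663 CPM and 4 at 1435 to 1923 CPM, and the lower set lay within the *Lmna* ADKO range. Its means were 1256 ± 605 CPM (SD, n = 7) and 598 ± 258 CPM (SD, n = 6) (log2 fold change -1.07, standard error 0.340, adjusted p = 0.0353, edgeR; exact permutation test, p = 0.0303). Of the 4 calls, this one alone was lost under any alternative tried. It was lost without vehicle-treated *Lmna* ADKO liver 1, 3, 5, or 6 and without vehicle-treated control 3, 5, 6, or 7, each left out on its own (adjusted p from 0.0531 to 0.0824, edgeR), without the 3 libraries set apart (adjusted p = 0.0818, edgeR), and with only the groups compared in the fit (adjusted p = 0.0871, edgeR). Given the likeness of the 2 genes, their counts were also summed, and the sum was called (log2 fold change -1.16, adjusted p = 0.0070, edgeR). Of 150-base stretches, the read length, 4.22% of the *Cyp2a4* transcript and 3.59% of the *Cyp2a5* transcript were found in the other. The share of *Cyp2a4* in the counts of the pair was 31.3% ± 12.3 (SD, n = 7) in controls, where it ranged from 13.2% to 53.6%, and 26.1% ± 4.70 (SD, n = 6) in *Lmna* ADKO livers. The pair thus did not move in a fixed ratio from liver to liver.

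*Cyp2a12* was not called. Its levels ran from 481.8 to 805 CPM in vehicle-treated controls and from 519 to 630.4 CPM in vehicle-treated *Lmna* ADKO livers, and its log2 fold change was -0.22 (95% interval -0.47 to 0.04, adjusted p = 0.290, edgeR). *Cyp2a22*, whose coding sequence is 97.0% identical to that of *Cyp2a12*, fell. Its mean was 276 ± 130.0 CPM (SD, n = 7) for control and 123 ± 28.8 CPM (SD, n = 6) for knockout mice (log2 fold change -1.16, standard error 0.275, adjusted p = 0.00496, edgeR). Of the other genes of the cluster, *Cyp2g1*, an olfactory P450, fell. Its mean was 3.89 ± 1.58 CPM (SD, n = 7) for control and 0.439 ± 0.287 CPM (SD, n = 6) for knockout mice (log2 fold change -3.14, standard error 0.409, adjusted p = 8.99e-06, edgeR), with no overlap between groups. *Cyp2f2*, a periportal P450, and *Cyp2s1* were not called (log2 fold changes 0.24 and 0.51, adjusted p = 0.443 and 0.436, edgeR). *Cyp2t4* had at most 1 count in any library, and *Cyp2b19* and *Cyp2b23* are not among the rows used here. Of the 5 listed cluster genes with rows, 2 thus fell and 0 rose.

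Of the CYP2B genes, *Cyp2b9* fell without overlap, *Cyp2b13* was lower without passing the test, and *Cyp2b10* was at a far lower level than both. *Cyp2b9* was at 406, 624, and 688 CPM (lowest, median, highest) in vehicle-treated controls and at 252, 337, and 397 CPM in vehicle-treated *Lmna* ADKO livers. Every *Lmna* ADKO liver lay below every control, which held for 7.95% of all genes in either direction and for 1 of these 9. The means were 575 ± 117 CPM (SD, n = 7) and 333 ± 50.4 CPM (SD, n = 6) (log2 fold change -0.79, standard error 0.137, adjusted p = 0.000186, edgeR; exact permutation test, p = 0.00175). *Cyp2b13*, with 2 differing bases in the upstream sequence shown above, was at 227, 512, and 773 CPM in controls and 202, 329.6, and 574 CPM in *Lmna* ADKO livers. Its groups overlapped, and the log2 fold change was -0.50 (95% interval -1.04 to 0.05, adjusted p = 0.261, edgeR). The coefficient of variation among controls was 20.3% for *Cyp2b9* and 38.0% for *Cyp2b13*. Whether the 2 genes differ in response was not tested. No 150-base stretch was common to their transcripts. Their summed counts were called (log2 fold change -0.64, adjusted p = 0.0196, edgeR).

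*Cyp2b10* had 14 to 227 counts per library. Levels ran from 0.635 to 9.44 CPM in vehicle-treated controls and from 2.13 to 9.70 CPM in vehicle-treated *Lmna* ADKO livers, and the highest control exceeded all but 1 of the *Lmna* ADKO livers. The log2 fold change was 0.81 with an interval from -0.26 to 1.89 (adjusted p = 0.365, edgeR). It was 0.14 with the animals' number series (3 or 4 digits) as a covariate (adjusted p = 0.951, edgeR). Without vehicle-treated control 4 it was 1.36 (adjusted p = 0.0945, edgeR). With *Cyp2b9* as the measure, *Cyp2b10* made up at most 3.52% of the counts of the pair in any liver. *Por* was at 391, 498, and 764 CPM in vehicle-treated controls and 219, 384, and 542 CPM in vehicle-treated *Lmna* ADKO livers, with a log2 fold change of -0.49 that did not pass (95% interval -0.92 to -0.07, adjusted p = 0.140, edgeR; exact permutation test, p = 0.0647). Of the *Lmna* ADKO livers, 3 lay below every control.

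**Figure D1:**
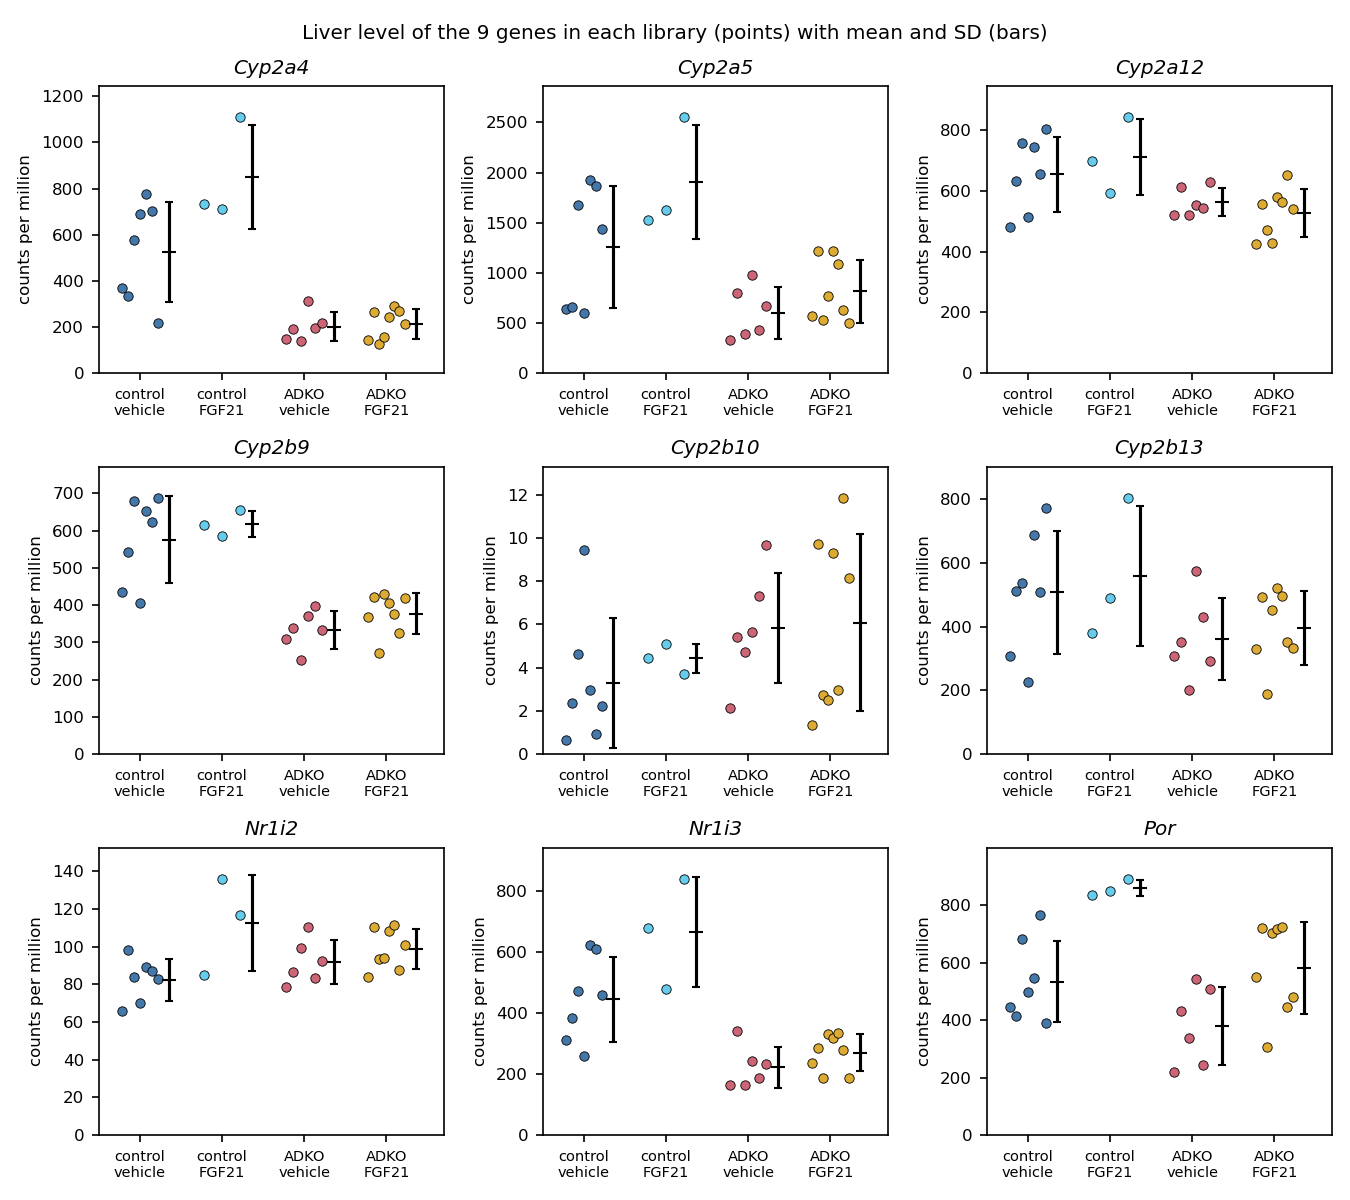
Level of each of the 9 genes in CPM (vertical axis, linear from 0) in every library (points) of the 4 groups (horizontal axis), with the mean and SD beside the points. In vehicle-treated mice only *Cyp2b9* separates the genotypes fully, and after FGF21 *Cyp2a4*, *Cyp2a5*, *Cyp2b9*, *Nr1i3*, and *Por* do, whereas *Cyp2b10* stays below 12 CPM in every liver.

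After FGF21, the same question of genotype was asked in 8 *Lmna* ADKO and 3 control livers, and 3 of the 9 genes were called, all lower in *Lmna* ADKO livers: *Cyp2a4*, *Cyp2b9*, and *Nr1i3*. In this comparison 2.88% of all genes were called, 1.61% higher and 1.26% lower, and 6 of the 9 were at an unadjusted p under 0.05, against 16.9% of all genes. With 3 controls, the exact test cannot go below p = 0.00606. *Cyp2a4* was at 732, 711, and 1111 CPM in the 3 controls and at 125, 228, and 289 CPM (lowest, median, highest) in *Lmna* ADKO livers, with no overlap (log2 fold change -2.002, standard error 0.304, adjusted p = 0.000428, edgeR). *Nr1i3* was at 679.9, 479, and 841 CPM in controls and 187, 282, and 334 CPM in *Lmna* ADKO livers, again with no overlap (log2 fold change -1.30, standard error 0.239, adjusted p = 0.00233, edgeR). Without the 3 libraries set apart, 1 of which is the control at 841 CPM, the *Nr1i3* call was lost (log2 fold change -1.10, adjusted p = 0.0713, edgeR). *Cyp2b9* was at 614, 584, and 655 CPM in controls and 271, 390.4, and 429 CPM in *Lmna* ADKO livers (log2 fold change -0.71, standard error 0.159, adjusted p = 0.00907, edgeR). Its call was lost without FGF21-treated control 3 (adjusted p = 0.0567, edgeR) and with only the 4 *Lmna* ADKO and 3 control livers whose animal numbers have 4 digits (adjusted p = 0.0516, edgeR), at log2 fold changes of -0.67 and -0.71.

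*Cyp2a5* and *Por* did not overlap between genotypes after FGF21 and yet were not called. *Cyp2a5* was at 1529, 1622, and 2557 CPM in controls and 498, 699.3, and 1219.7 CPM in *Lmna* ADKO livers (log2 fold change -1.22, standard error 0.385, adjusted p = 0.0804, edgeR). It was called by DESeq2 (adjusted p = 0.0177), after a filter on low counts (adjusted p = 0.0397, edgeR), and with only the groups compared in the fit (adjusted p = 0.0454, edgeR). It moved further from a call without the 3 libraries set apart (log2 fold change -0.90, adjusted p = 0.417, edgeR), without FGF21-treated control 3 alone (-0.95, adjusted p = 0.388, edgeR), and with the animals' number series as a covariate (-1.05, adjusted p = 0.237, edgeR). *Por* was at 837, 848, and 892 CPM in controls and 307, 627, and 725 CPM in *Lmna* ADKO livers (log2 fold change -0.56, standard error 0.256, adjusted p = 0.256, edgeR). In all, 5 of the 9 genes did not overlap between groups, against 5.35% of all genes. The fitted log2 differences of *Cyp2a12*, *Cyp2b13*, and *Nr1i2* were -0.43, -0.50, and -0.19, and did not pass (adjusted p = 0.118, 0.463, and 0.508, edgeR). Single controls weighed on these values, as *Cyp2b13* was at -0.14 without FGF21-treated control 3 and *Nr1i2* at -0.03 without control 2 and -0.36 without control 1. Without the 3 libraries set apart, *Cyp2b13* was at -0.11 and *Cyp2b10* at 0.13. *Cyp2b10* spread from 1.33 to 11.9 CPM in *Lmna* ADKO livers, on both sides of the controls at 4.47, 5.09, and 3.73 CPM (log2 fold change 0.44, 95% interval -0.88 to 1.77). The summed counts of *Cyp2a4* and *Cyp2a5* were called (log2 fold change -1.42, adjusted p = 0.0126, edgeR), and those of *Cyp2b9* and *Cyp2b13* were not (log2 fold change -0.61, adjusted p = 0.130, edgeR). *Cyp2a22* and *Cyp2g1* fell in this comparison too (log2 fold changes -1.75 and -2.07, adjusted p = 0.00198 and 0.00397, edgeR). The counts of *Cyp2a12* and *Cyp2a22*, summed after the values were seen, were called after FGF21 (log2 fold change -0.76, adjusted p = 0.0113, edgeR) and not with vehicle (-0.44, adjusted p = 0.0455, edgeR, a fold change under 1.5), which is a call of the sum and not of *Cyp2a12*.

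**Figure D2:**
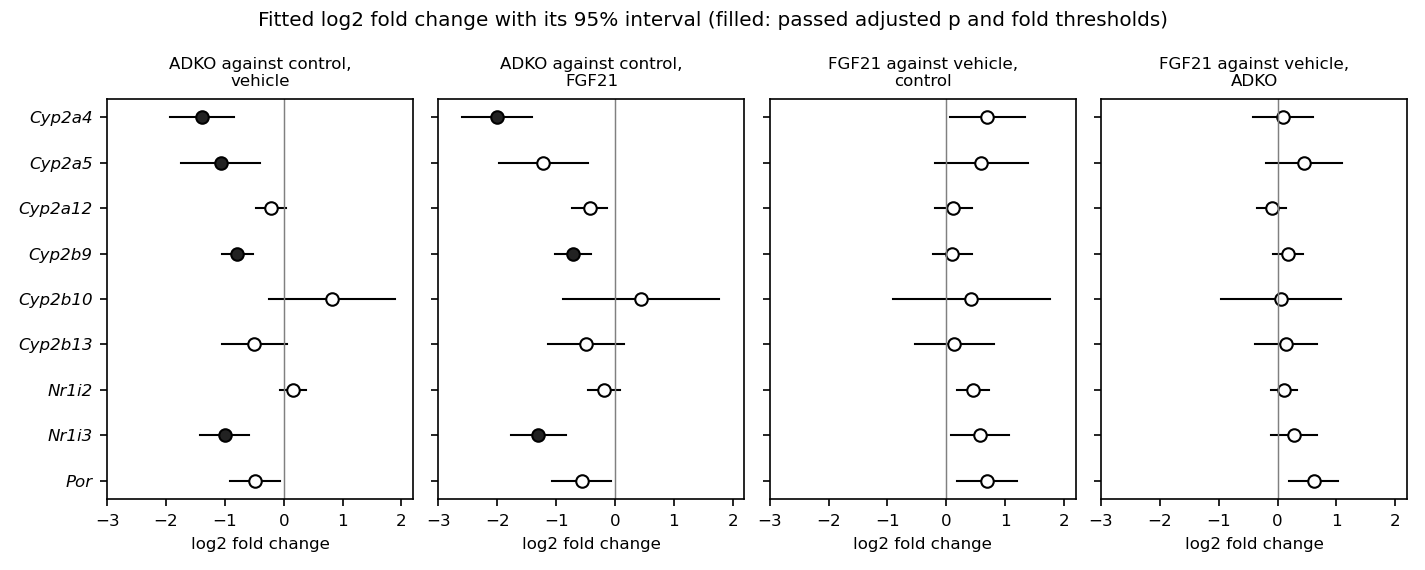
Fitted log2 fold change (horizontal axis) of the 9 genes in 4 comparisons, with lines for the 95% interval (estimate ± 1.96 standard errors) and filled points where the gene was called. The called genes are 4 in vehicle-treated and 3 in FGF21-treated mice, all to the left of 0, and 0 in either comparison of FGF21 with vehicle.

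FGF21 against vehicle gave 0 called genes among the 9 in either genotype, by edgeR and by DESeq2. Of all genes, 0.0542% were called in controls (0.0501% higher and 0.00417% lower) and 0.0% in *Lmna* ADKO livers (edgeR), where DESeq2 called 15 genes. At an unadjusted p under 0.05, there were 4 of 9 in controls and 1 of 9 in *Lmna* ADKO livers, against 6.16% and 6.71% of all genes. The 4 in controls were *Cyp2a4*, *Nr1i2*, *Nr1i3*, and *Por*, all higher after FGF21, with log2 fold changes of 0.70, 0.45, 0.58, and 0.69 (adjusted p from 0.449 to 0.771, edgeR). *Por* was the 1 gene in *Lmna* ADKO livers (log2 fold change 0.61, unadjusted p = 0.00768, adjusted p = 0.691, edgeR). The 3 FGF21-treated controls, at 837, 848, and 892 CPM, all lay above the 7 vehicle-treated controls, whose highest was 764 CPM (log2 fold change 0.69, unadjusted p = 0.0140, adjusted p = 0.692, edgeR; exact permutation test, p = 0.0167). Groups that do not overlap were 1.67% of all genes in that comparison. In *Lmna* ADKO mice, 5 of 8 FGF21-treated livers lay above all 6 vehicle-treated livers for *Por*. Of the 9 genes, 0 separated fully there, against 0.0751% of all genes. All 9 genes had a positive log2 fold change in controls, and 8 of 9 in *Lmna* ADKO livers, where *Cyp2a12* had -0.10. The interaction of genotype and treatment was called for 0 of the 9 genes by edgeR and by DESeq2, and for 0.00417% of all genes (edgeR). At an unadjusted p under 0.05 there were 0 of the 9, against 4.86% of all genes. Its log2 values ran from -0.61 for *Cyp2a4* (95% interval -1.43 to 0.20) to 0.07 for *Cyp2b9* (-0.34 to 0.49).

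The levels of the receptors, *Por*, and the P450 genes were compared from liver to liver within the 3 groups of at least 6 libraries, in 54 relations of log2 CPM. Of these, 50 had a positive Pearson r, 13 had a raw p under 0.05, and 1 an adjusted p under 0.05 (exact permutation test over pairings, Benjamini-Hochberg over the 54). The 1 relation was *Nr1i3* with *Cyp2a5* in vehicle-treated controls. There the livers fell into separate sets for *Cyp2a5* (3 and 4 livers, above), and the 3 low livers were also the 3 lowest for *Nr1i3*, at 258 to 383 CPM against 459 to 624.9 CPM in the other 4, so that no r over the 7 is given. In rank the 7 livers had the same order for both genes (rho = 1.0), a value that includes the split. Without the libraries of these groups that are set apart, control 3 and FGF21-treated *Lmna* ADKO liver 7, 0 relations passed the adjustment. The 6 controls then left allow no exact permutation p below 0.00139, which is the p this relation had (adjusted p = 0.0679), so the lost pass does not bear on its stability. In vehicle-treated *Lmna* ADKO livers, *Nr1i3* and *Cyp2a5* had r = 0.850 and rho = 0.943 (n = 6, exact permutation test, p = 0.0361 and 0.0167, adjusted p = 0.195 and 0.221), and r = 0.941 without the 2 libraries farthest from the *Nr1i3* median. In FGF21-treated *Lmna* ADKO livers, r was 0.797 and rho 0.810 (n = 8, exact permutation test, p = 0.0257 and 0.0218, adjusted p = 0.174 and 0.221), and r was 0.617 without the 2 farthest. *Por* and *Cyp2b13* in the same group had r = 0.964 and rho = 0.833 (n = 8, exact permutation test, p = 0.00283 and 0.0154, adjusted p = 0.0763 and 0.221), with r = 0.947 without the 2 farthest. In the vehicle groups their r was far lower, at 0.241 in *Lmna* ADKO livers (n = 6) and 0.032 in controls (n = 7). *Por* and *Cyp2a5* had r = 0.898 in vehicle-treated *Lmna* ADKO livers (n = 6, exact permutation test, p = 0.0319, adjusted p = 0.192). In FGF21-treated *Lmna* ADKO livers they had r = 0.803 (n = 8, exact permutation test, p = 0.0178, adjusted p = 0.160). Their p in vehicle-treated controls was 0.156 (exact permutation test). *Nr1i3* and *Cyp2b13* in FGF21-treated *Lmna* ADKO livers had r = 0.838 (n = 8, exact permutation test, p = 0.00476, adjusted p = 0.0857). Their r was 0.401 in vehicle-treated *Lmna* ADKO livers (n = 6). In vehicle-treated controls it was 0.830 (n = 7), and 0.156 without the 2 farthest. These relations did not pass the adjustment.

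**Figure D3:**
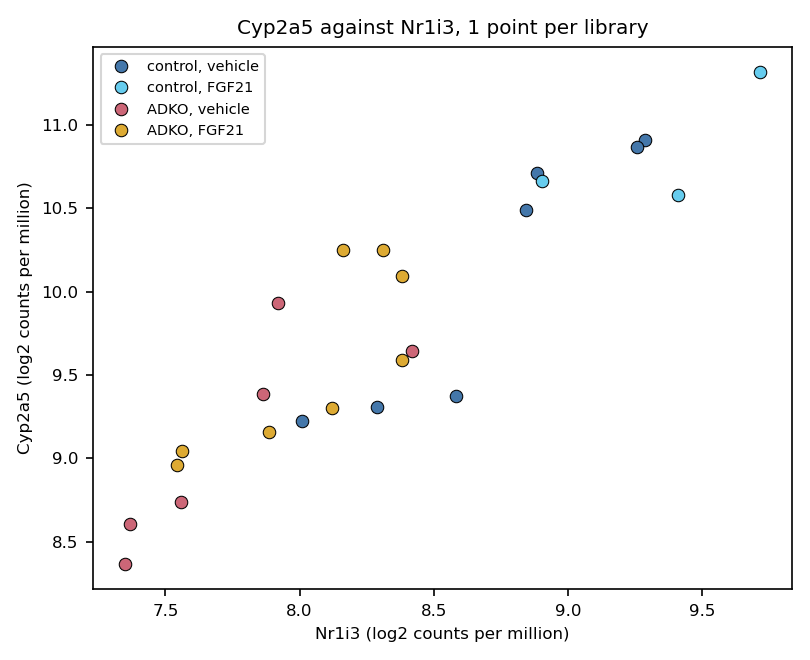
*Cyp2a5* (vertical axis) against *Nr1i3* (horizontal axis), both in log2 CPM, with 1 point per library and a colour per group. Control livers reach the upper right and *Lmna* ADKO livers the lower left, and the vehicle-treated controls split into 3 livers at the level of the *Lmna* ADKO livers for *Cyp2a5* and 4 above them.

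For each of the 9 genes, the 3 genes with the highest Pearson r of log2 CPM over all 24 libraries were sought among 9915 genes, with the 9 genes themselves left out, as a description that includes the differences between groups. Between *Nr1i3* and *Cyp2a5* themselves, r was 0.914 over the 24 libraries, above that of every gene found for *Cyp2a5*. After removing group means it was 0.856, below that of *Dgat2* with *Cyp2a5* (0.922). Both values for *Nr1i3* and *Cyp2a5* include the split among vehicle-treated controls given above. *Fgf1* was among the nearest for both *Nr1i3* (r = 0.918, and 0.866 after removing group means) and *Cyp2a5* (r = 0.908 and 0.825). *Dgat2* (0.908) and *Marc2* (0.906) followed for *Cyp2a5*, and *Igfbp4* (0.904) and *Zfp213* (0.896) for *Nr1i3*. *Cyp2b9* was nearest to *Cyp2c40* (0.931), *BC025446* (0.927), and *Cyp2c37* (0.926), and *Cyp2b13* to *Hsd11b1* (0.919), *Gcdh* (0.917), and *Lin7a* (0.839). The near-copies *Cyp2b9* and *Cyp2b13* had no gene in common among these 3 nearest, from which the 9 genes were left out. With each other, their r was 0.765 over the 24 libraries and 0.861 after removing group means. *Cyp2a4* was nearest to *Gm10658* (0.906), *Rabl6* (0.899), and *Serpina6* (0.891), *Cyp2a12* to *Fmo1* (0.868), *Cmbl* (0.854), and *Ttc23* (0.832), and *Por* to *Fmo2* (0.895), *Fbxo31* (0.882), and *Ldb1* (0.864). *Cyp2b10* (*Coq2* at 0.734, *Hsd17b13* at 0.700, and *Vapb* at 0.693) and *Nr1i2* (*Efhd2* at 0.762, *Wwox* at 0.759, and *Gm14097* at 0.718) had lower values. After removing group means, r for these pairs ran from 0.587 (*Efhd2* with *Nr1i2*) to 0.922 (*Dgat2* with *Cyp2a5*).

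Other genes of the same pathway were taken from lists chosen for their known roles, with earlier results of these data known. The counts of these lists and of those below are thus descriptions and not independent support. Of 20 partners and cofactors of the receptors, such as RXR, coactivators, and chaperones that hold CAR in the cytoplasm, 0 rose and 2 fell in vehicle-treated *Lmna* ADKO livers: *Egfr*, whose signalling restrains CAR (log2 fold change -0.99, adjusted p = 0.0254, edgeR), and *Foxa2*, a hepatocyte transcription factor (-0.80, adjusted p = 0.00347). After FGF21, 1 fell, *Gadd45b*, a coactivator of CAR (-1.57, adjusted p = 0.00198, edgeR), named after its values were seen. The median was -0.15 with vehicle and -0.17 after FGF21. Of 16 other targets of CAR and PXR, 6 rose and 5 fell with vehicle (median 0.16), so the list moved in both directions. Among them, *Cyp2c37* (-2.40, adjusted p = 0.000619, edgeR) and *Cyp2c29* (-1.42, adjusted p = 0.00140) fell, and the aldehyde dehydrogenases *Aldh1a7* (1.52, adjusted p = 4.87e-07) and *Aldh1a1* (1.31, adjusted p = 0.000122) rose. After FGF21, 4 rose and 2 fell (median -0.23), and without the 3 libraries set apart 3 rose and 0 fell. Of 13 genes that pass electrons to P450s or supply their haem, 1 rose in either comparison, *Cyb5r3* (0.61 with vehicle, adjusted p = 0.000397, edgeR), and 0 fell (medians -0.11 and -0.11).

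Because *Cyp2a4*, *Cyp2b9*, and *Cyp2b13* are female-biased, genes of that class outside these families were counted beside them. Of 11 female-biased liver genes, 11 fell and 0 rose in vehicle-treated *Lmna* ADKO livers, with a median log2 fold change of -5.84, or -5.83 with 3 genes at their bound. *Sult2a1*, a sulfotransferase of steroids and bile acids, fell from a mean of 241 to 4.27 CPM (log2 fold change -5.84, adjusted p = 0.00441, edgeR). *Cyp3a41a* had -8.88 (adjusted p = 0.00149, edgeR), with controls from 0.737 to 1604 CPM. *Cyp3a16* was at or under 3 counts in all 6 *Lmna* ADKO livers, at least 217-fold lower than the control mean of 29.4 CPM, with the floor per library. Among the 9 genes, the lowest log2 fold change in this comparison was -1.39, for *Cyp2a4*. Without the 3 libraries set apart, 10 of the 11 fell. After FGF21, 5 of 11 fell (median -3.97). Of 11 male-biased genes, 5 rose and 0 fell with vehicle: *Mup20* (3.59, adjusted p = 0.00922, edgeR), *Cyp2d9* (2.58, adjusted p = 1.40e-06), *Elovl3* (2.08, adjusted p = 0.00630), *Gstp1* (1.38, adjusted p = 0.00222), and *Cyp4a12a*, a low gene named after its values were seen. The median was 1.38, or 0.90 without *Cyp4a12b*, whose mean level was no higher than the floor in either group. After FGF21, 2 rose, *Cyp2d9* and *Cyp4a12a*. Of 12 genes of growth hormone signalling, 0 rose and 5 fell with vehicle (median -0.47), among them the prolactin receptor *Prlr* (-1.55, adjusted p = 7.29e-07, edgeR), *Cish* (-1.32, adjusted p = 0.00500), *Onecut1* (-1.23, adjusted p = 0.0349), and *Igf1* (-0.89, adjusted p = 0.000613). After FGF21, 1 fell, *Prlr* (median -0.15).

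Several of the genes are also known to be higher around the central vein than around the portal vein. Of 11 pericentral genes, 0 rose and 6 fell with vehicle (median -0.70), among them *Cyp1a2* (-1.44, adjusted p = 7.67e-06, edgeR), *Tbx3* (-1.31, adjusted p = 0.00132), *Oat* (-1.07, adjusted p = 0.000295), and *Cyp2e1* (-0.88, adjusted p = 0.00180), and 5 fell after FGF21 (median -0.60). Of 10 periportal genes, 1 rose with vehicle, *Hsd17b13* (0.65, adjusted p = 0.0199, edgeR), and 3 fell, *Gls2* (-1.06, adjusted p = 0.000130), *Hal* (-1.06, adjusted p = 0.000531), and *Cps1* (-0.93, adjusted p = 0.00155), with a median of -0.22 and 1 fall after FGF21 (median -0.09). In vehicle-treated livers, 2 of 7 hepatocyte markers fell, their sum running from 100011 to 157652 CPM in controls and from 87027 to 123226 CPM in *Lmna* ADKO livers. The 6 cholangiocyte markers summed to 27.1 to 51.2 CPM in controls and 85.8 to 195.9 CPM in *Lmna* ADKO livers (2 rose), and the 8 stellate and myofibroblast markers to 237 to 316 and 293 to 414 CPM (2 rose). Macrophage markers (1 of 9 rose, and 0 without the 3 libraries set apart, 494 to 747 and 373 to 638 CPM), endothelial markers (2 of 6 rose, 200.4 to 253 and 188 to 242 CPM), and lymphocyte markers (0 of 6, 5.60 to 12.6 and 4.74 to 11.1 CPM) overlapped between genotypes. Of 3 measured acinar markers, whose sum was at most 0.487 CPM, 1 fell, and the 4 adipocyte markers were at or under 3 counts in every vehicle-treated *Lmna* ADKO liver. After FGF21, the cholangiocyte sum was 32.3 to 38.5 CPM in controls and 50.4 to 242 CPM in *Lmna* ADKO livers, with 0 of 6 called. Without the 3 libraries set apart, with vehicle, 1 receptor partner and 7 pericentral genes fell, 5 other targets rose and 5 fell, 3 cholangiocyte markers rose, and 1 lymphocyte marker fell. After FGF21 and without these libraries, 4 pericentral and 0 periportal genes, 0 hepatocyte markers (1 with all libraries), 1 adipocyte marker (0 with all libraries), and 1 gene of the cluster (2 with all libraries) fell, and 1 male-biased gene rose. The part of these shifts in the fall of *Nr1i3*, *Cyp2a4*, *Cyp2a5*, and *Cyp2b9* was not tested.

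**Figure D4:**
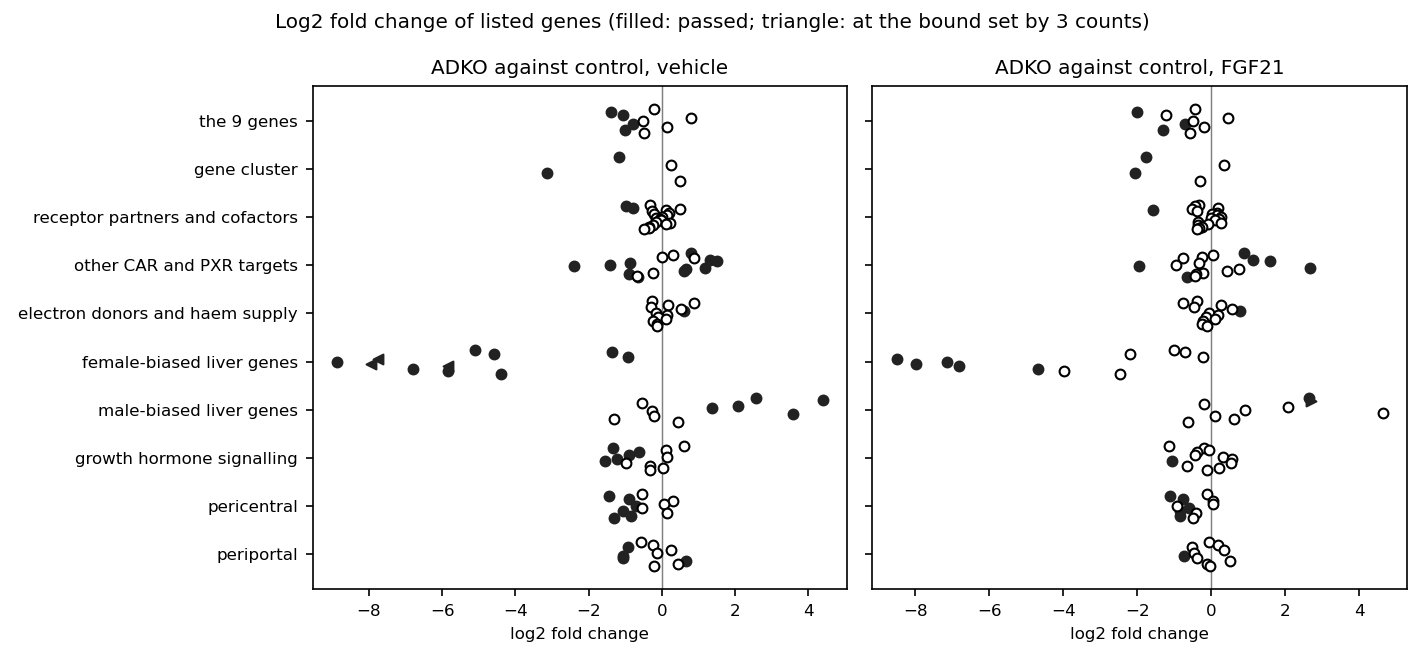
Log2 fold change (horizontal axis) of every gene of the 9 and of each list (rows) between genotypes, with vehicle on the left and after FGF21 on the right. Filled symbols are called genes and triangles stand at the bound set by 3 counts, and genes at or under 3 counts in both groups are left out. With vehicle, all 11 female-biased genes are filled and left of 0, and the targets of CAR and PXR lie on both sides.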

How the data were processed

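Liver RNA was measured in 24 female mice by polyA-selected, strand-marking RNA-Seq from 200 ng of RNA. The authors deposited whole-number counts per gene (Ensembl 102), with genes at 0 in every sample removed. The submitters' processing notes name FastQC 0.11.8, cutadapt 4.8, STAR 2.7.8a, and RSEM 1.3.3. The strand setting of the counting is not given in the sources used here, and the counts may be rounded estimates. The labels' "Rescue" was read as FGF21 from the study's methods. Groups came from the sample labels. P-values measure the spread between these mice.

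All 23972 genes were fitted in edgeR 4.0.16 (R 4.3.3, limma 3.58.1) with TMM scaling, 1 mean per group, and robust quasi-likelihood tests, with Benjamini-Hochberg adjustment over all genes. The fit was tested on simulated data. Levels are CPM, and log2 CPM used a prior count of 2. Intervals are the estimate ± 1.96 standard errors. Exact permutation tests on log2 CPM were two-sided. Total counts were 19863304 to 21510054 per library. Among 67 pairs of libraries within a group, chi-square per degree of freedom was at least 14.1, so no library was a repeat of another in its group. Promoters came from RefSeq (GRCm38.p6) and positions from GENCODE M21 (GRCm38).

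The 9 genes and the lists were chosen with earlier results of these data known. Named from each list were at most 4 called genes with the largest change with vehicle (average log2 CPM 0 or more), every gene of the cluster, and the 3 genes most alike to each of the 9 (average log2 CPM 2 or more). Alternatives were DESeq2 1.42.0, its size factors in edgeR, a filter on low counts, no fold threshold, the compared groups alone, the animals' number series or the length slope as a covariate, leaving out libraries, and summed near copies. Among these, 3 (FGF21-treated livers with 4-digit numbers between genotypes, *Cyp2a12* summed with *Cyp2a22*, and list counts without the 3 libraries set apart) were chosen after seeing the data. Some genes of the lists are counted but not reported here by name.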

Additional observations from a re-analysis of the deposited data

Results flagged for a closer look

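Of 27 groups of 4 to 10 libraries tested over the 9 genes, 1 held a library far from the others, and chance flags about 1 in 20. *Cyp2b13* in FGF21-treated *Lmna* ADKO liver 3 was at 188 CPM, below the nearest liver at 328 CPM, with the highest at 522 CPM. The gap was 0.545 of the range, against a critical value of 0.526 for 8 libraries.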

How the results depend on the processing

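Over the alternatives, 3 to 4 of the 9 genes were called between genotypes with vehicle, 2 to 4 after FGF21, and 0 in either comparison of FGF21 with vehicle or in the interaction. Leaving out 1 library at a time gave 3 to 4 and 2 to 3. The calls that changed are given in the report. Of the 54 relations between receptors or *Por* and P450 genes, 1 passed the adjustment in the report, 1 with DESeq2 size factors, and 0 without the libraries set apart, where the relation had the smallest p that 6 controls allow, so this count does not bear on its stability. Log2 fold changes turned sign only for FGF21 against vehicle, in genes that were not called. In controls, the number series as a covariate gave -0.117 for *Cyp2a12*, -0.322 for *Cyp2b10*, and -0.153 for *Cyp2b13*, which the length slope put at -0.0496 and the fit without the 3 libraries at -0.206. In *Lmna* ADKO livers, *Cyp2b10* was at -0.182 with the length slope and -0.159 without the 3 libraries, and *Cyp2a12* at 0.0234 with 4-digit numbers only. With 1 library left out at a time, *Cyp2a12* ran from -0.0248 (without FGF21-treated control 3) to 0.235 and *Cyp2b13* from -0.222 (without the same control) to 0.351 in controls, and in *Lmna* ADKO livers *Cyp2a4* ran from -0.00208 (without vehicle-treated liver 3) to 0.258 and *Cyp2b10* from -0.155 to 0.261, below 0 without any 1 of 6 livers. The cause was not tested. No paired analysis was possible because the labels give no replicate numbers that pair mice across groups. The animals' number series is uneven (4-digit numbers in 1 of 7, 3 of 3, 5 of 6, and 4 of 8 livers of vehicle-treated and FGF21-treated controls and of vehicle-treated and FGF21-treated *Lmna* ADKO mice), and with it as a covariate 4 and 3 genes were called. The counts of *Cyp2b10* were low, at 14 to 227 per library. Its levels also spread widely between livers, from 0.635 to 9.44 CPM in vehicle-treated controls. The source of its wide interval was not tested.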
